A study of Homo sapiens with 2 samples.

Results

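The genes described here encode HSP70 chaperones and the proteins that work with them: J-domain proteins, the HSP110 relative HSPH1, small heat shock proteins and BAG proteins. They were chosen by gene symbol, as the genes whose symbol starts with DNAJA, DNAJB, DNAJC, HSPA, HSPB or BAG followed by a number, together with HSPH1. Only probe sets annotated with exactly 1 symbol were used, and each gene was represented by the probe set with the highest mean log2 signal. This gave 53 genes with 84 probe sets, of 11963 genes represented in all. The constitutive cytosolic HSPA8 and the inducible pair HSPA1A and HSPA1B lie outside the set, because 8 probe sets whose annotation joins a matching symbol to other symbols were left out. DNAJB11 was not analysed here.

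RNA came from H6c7, a line of human pancreatic duct epithelium immortalised with papillomavirus genes, and from H6c7-Kr, the same line after introduction of a K-ras oncogene. The immortalising genes are thus shared by both lines. The labels name no mutation, vector or promoter for the oncogene and no vector control, and do not state whether H6c7-Kr is 1 clone or a mixed population. Each line was measured on 1 Affymetrix U133A array, an oligonucleotide array read as 1 fluorescence intensity per probe set. There is therefore no replicate error, no difference could be tested, and every ratio compares these 2 arrays. In RNA of whole cultures, fewer cells of a type and less RNA per cell cannot be told apart.

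HSP70 proteins bind exposed stretches of unfolded polypeptides in a cycle driven by ATP. J-domain proteins deliver clients and trigger ATP hydrolysis, and nucleotide exchange factors, among them BAG proteins and HSP110 proteins such as HSPH1, release ADP and the client. Each compartment has its own HSP70, with HSPA5 (BiP) in the endoplasmic reticulum (ER) and HSPA9 (mortalin) in the mitochondrion. Cytosolic members are classically induced by the heat shock factor HSF1, and ER members by the unfolded protein response.

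Ratios are of the H6c7-Kr signal over the H6c7 signal, on the log2 scale where so stated. A signal below 46.9, the floor, was not read as a level, so a gene below the floor on 1 array has a bound ("at least") computed against the floor, and a gene below it on both arrays was not measured. Genes with a ratio of at least 2-fold are called higher or lower. Of the 53 genes, 41 were above the floor on at least 1 array, 31 of them on both, and 12 were not measured. The median array signal was 43.9 in H6c7 and 46.9 in H6c7-Kr. The only repeat measurement is that between probe sets of 1 gene, which is technical. Its pooled standard deviation of the log2 ratio was 0.46 over 1671 genes, and 0.30 over the 9 members with repeat measurements of this kind.

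Several cytosolic chaperones had much lower signals in the K-ras line, led by HSPH1 and DNAJA1, whereas HSPA5, DNAJB9 and DNAJB12 of the ER had higher signals. Of these ER genes only DNAJB9 reached 2-fold. The compartments were not cleanly split, as DNAJC10 of the ER was at least 5.76-fold lower and the cytosolic DNAJB2 was 4.67-fold higher. Of the 41 measured members 9 (21.95%) were at least 2-fold lower, against 14.4% of all 7693 measured genes, and 2 (4.88%) were at least 2-fold higher, against 9.97% of all genes. A gene that was measured only because it was above the floor on the parental array had to be lower, and 6 of the 9 were of that kind. Among the 31 members with 2 signals above the floor, 3 (9.68%) were lower, against 13.4% of all genes so measured, and 2 (6.45%) were higher, against 11.1%. The share of lower members therefore lay above the background under the first filter and below it under the second, and no excess can be read from it. The median log2 ratio was -0.12 over the 41 members and 0.10 over all measured genes. Without any floor 13 of the 53 members (24.5%) were lower and 5 (9.43%) were higher, against 15% and 20.2% of all genes. This setting reads signals below the floor as levels. With the floor at the 70th percentile 4 of 28 measured members were lower and 1 was higher. Of all genes so measured 12.7% were lower and 9.04% higher. BAG2, DNAJB2 and the bounds of HSPA14 and HSPA4L then fell short of 2-fold, and HSPA2 and DNAJC13 were no longer measured.

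**Figure D1:**
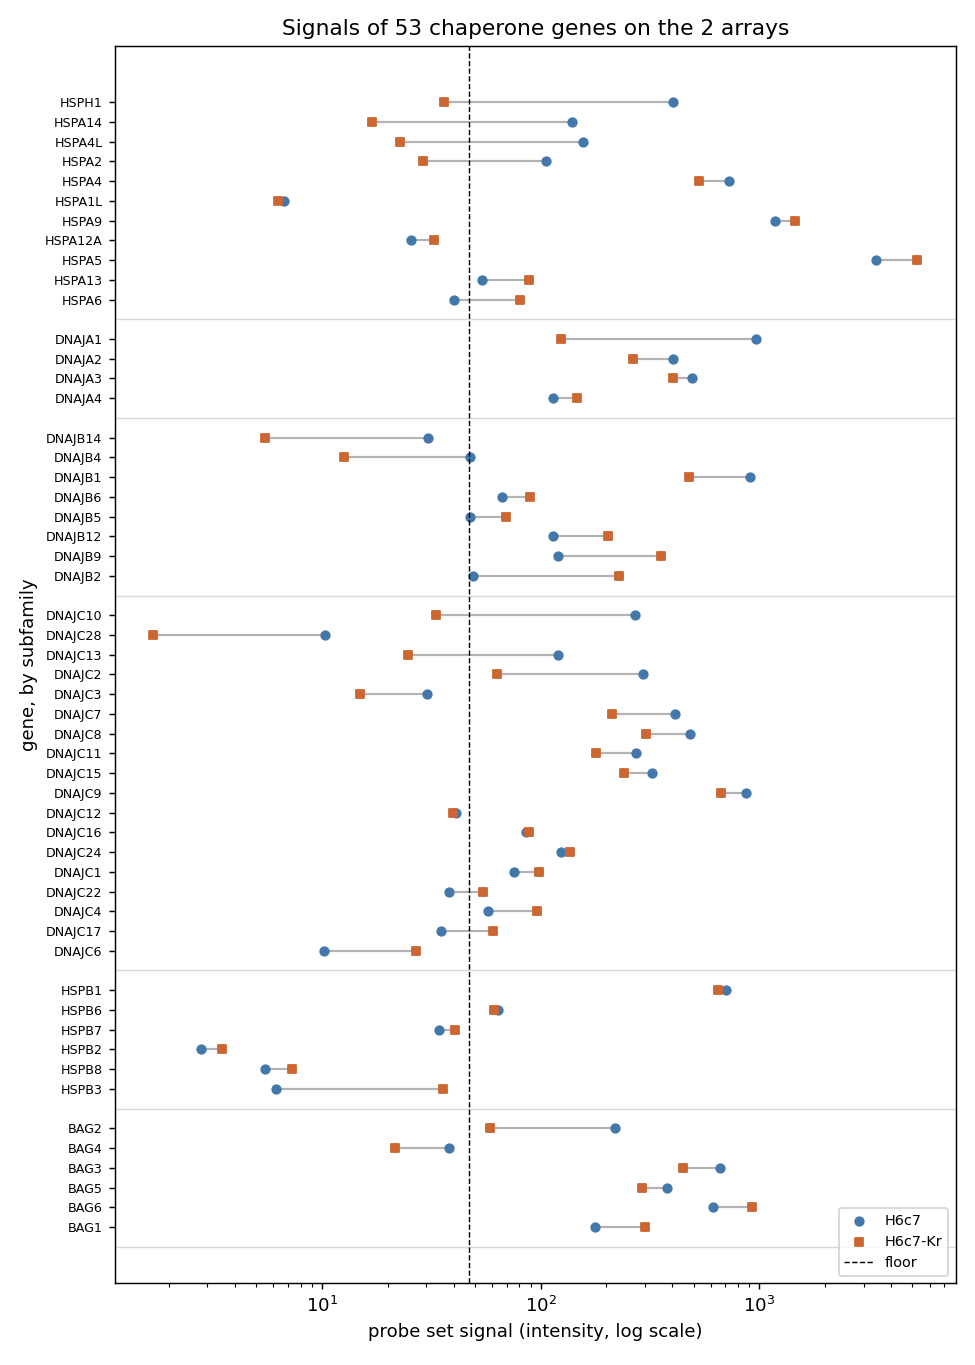
Signals of the 53 genes on a log axis, in H6c7 (blue circles) and H6c7-Kr (orange squares), grouped by subfamily and joined by a line for each gene; the dashed line is the floor of 46.9. HSPH1, HSPA14, HSPA4L, HSPA2, DNAJC10 and DNAJC13 cross the floor from right to left, whereas both signals of DNAJA1, DNAJC2 and BAG2 stay to the right of it.

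The HSP70 and HSP110 group held 4 of the 9 lower genes. Of its 11 genes 9 were measured and 4 of these (44.4%) were lower, against 14.4% of all measured genes, while none was higher. All 4 are bounds of genes measured only through the parental array, so their direction was fixed by the filter. The median log2 ratio was -0.45 over the 9 genes and 0.47 over the 4 above the floor on both arrays, so the sign of the median depends on the bounds. HSPH1, an HSP110 protein that frees HSP70 of its nucleotide and dissolves aggregates, had a signal of 402 in H6c7 and 36.1 in H6c7-Kr. The K-ras value is below the floor, so HSPH1 was at least 8.57-fold lower, rank 32 of 7693 from the lowest. Its other probe set went from 110 to 6.0, again below the floor, a bound of -1.24 on the log2 scale. Both probe sets therefore place the K-ras array below the parental array, and neither gives a measured level on it.

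The other HSP110 proteins were HSPA4 and HSPA4L. HSPA4L had a signal of 157 in H6c7 and 22.8 in H6c7-Kr, at least 3.34-fold lower. HSPA4 had a signal of 729 in H6c7 and 532 in H6c7-Kr, a log2 ratio of -0.45, but this probe set may pick up related transcripts. The other 3 probe sets of HSPA4 gave log2 ratios of -1.18, -1.02 and -0.84, so all 4 lay on the lower side and the one with the highest mean signal showed the smallest difference. All 3 HSP110 genes had lower signals in the K-ras line. The 2 past 2-fold, HSPH1 and HSPA4L, were measured only through the parental array, so their direction was fixed by the filter. HSPA4 alone was above the floor on both arrays, and it did not reach 2-fold on the probe set used.

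Lower signals also came from 2 further cytosolic HSP70 genes. HSPA14, the HSP70 of the ribosome-associated complex that assists nascent chains, went from 139 to 16.9 and was at least 2.96-fold lower. DNAJC2, its J-domain partner in that complex, went from 294 to 63.1, 4.65-fold lower. Both subunits of the complex were thus below their parental values, DNAJC2 on a measured level and HSPA14 on a bound. HSPA2, an HSP70 best known from the testis, went from 106 to 29.0 and was at least 2.27-fold lower. HSPA6, a strictly stress-inducible HSP70, went the other way, from 40.0, below the floor, to 80.6, a bound of 1.72-fold that does not reach 2-fold. Its second probe set was not measured, and its near-identical copy HSPA7 makes the value uncertain. HSPA12A and HSPA1L were not measured, with signals of 6.30 to 32.5.

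HSPA5, the ER HSP70 and master chaperone of that compartment, had signals of 3405 in H6c7 and 5270 in H6c7-Kr. The K-ras value was 1.55-fold higher, a log2 ratio of 0.63 on its only probe set. HSPA9, which pulls proteins into the mitochondrial matrix, had signals of 1176 and 1448, with 0.10, 0.18 and 0.30 as the log2 ratios of 3 probe sets, all within the spread between probe sets. HSPA5 and HSPA9 were therefore well above the floor on both arrays, and neither was below its parental value. HSPA13, a microsomal HSP70 relative, had no settled direction. Its main probe set went from 54.2 to 88.6, a log2 ratio of 0.71, and the other from 88.7 to 27.0, a bound of -0.92.

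The 4 DNAJA genes encode the type of J-domain protein closest to bacterial DnaJ. DNAJA1, a farnesylated cytosolic partner of HSP70, had a signal of 966 in H6c7 and 124 in H6c7-Kr, 7.81-fold lower and rank 39 of 7693 from the lowest. The log2 ratio was -2.97 on this probe set and -3.21 on its second one, and unlike those of HSPH1 all of these signals lay above the floor. Its close relative DNAJA2 went from 405 to 265, a log2 ratio of -0.61. DNAJA4 went from 114 to 146, a log2 ratio of 0.36, and the mitochondrial DNAJA3 from 491 to 403, a log2 ratio of -0.28, both within the spread between probe sets. The difference of DNAJA1 was thus not shared by its subfamily, in which no other gene reached 2-fold.

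Of the 8 DNAJB genes 7 were measured, 2 of them (28.6%) were higher, against 9.97% of all measured genes, and none was lower. The median log2 ratio was 0.54, against 0.10 over all measured genes. With no floor DNAJB14 and DNAJB4 had log2 ratios of -2.48 and -1.91, both below the parental value. DNAJB2, which carries ubiquitin-interacting motifs and hands clients to the proteasome, went from 49.1 to 229, 4.67-fold higher and rank 46 of 7693 from the highest. Its parental signal lay just above the floor and it has 1 probe set, so the ratio is close to a bound. DNAJB9 (ERdj4), an ER J-domain protein that directs misfolded proteins to degradation, went from 120 to 354, 2.94-fold higher. Its other probe set went from 13.9 to 48.0, which against the floor is a bound of only 0.03 on the log2 scale and does not bear a 2-fold call.

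DNAJB1, the major heat-inducible J-domain protein (HSP40), was below its parental value on both of its probe sets. Its signal was 906 in H6c7 and 478 in H6c7-Kr, a log2 ratio of -0.92, and its second probe set gave -0.31. DNAJB6, a suppressor of aggregation, went from 66.3 to 89.0, a log2 ratio of 0.42. DNAJB5 and DNAJB12 had log2 ratios of 0.54 and 0.83, and DNAJB12, an ER membrane protein with its J domain in the cytosol, had a second probe set at 1.5. DNAJB4 went from 47.4, at the floor, to 12.6, so that its bound is 1.01-fold and says nothing of size. DNAJB14, the relative of DNAJB12, was not measured.

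The DNAJC genes share little beyond the J domain, and their log2 ratios spread from -2.53 to 0.74. Of 18 genes 14 were measured. Of these 3 (21.4%) were lower, against 14.4% of all measured genes, and none was higher, against 9.97%. The median was -0.41 on the log2 scale. Beside DNAJC2 the lower genes were DNAJC10 and DNAJC13, both measured only through the parental array, so that their direction was fixed by the filter. DNAJC10 (ERdj5), an ER reductase that opens disulphide bonds of proteins bound for degradation, went from 270 to 33.3, at least 5.76-fold lower, and its second probe set also gave a bound past 2-fold, -1.28 on the log2 scale. DNAJC13, which acts on endosomes, went from 120 to 24.9, at least 2.55-fold lower.

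Among the other cytosolic and nuclear DNAJC genes, DNAJC7, which binds both HSP70 and HSP90, went from 411 to 212, a log2 ratio of -0.96. DNAJC8, a nuclear protein linked to splicing, had log2 ratios of -0.67, -0.48 and -0.25 in 3 probe sets, the first of which is uncertain and the second a bound. DNAJC9, a histone chaperone, had -0.38, and -1.14 in a second probe set. DNAJC17 had a bound of 0.37 on the log2 scale, and DNAJC24, a factor of diphthamide synthesis, had a log2 ratio of 0.12. None of these reached 2-fold on the probe set used. DNAJC4 and DNAJC22, whose compartments were left unassigned, had log2 ratios of 0.74 and, as a bound, 0.22. DNAJC3, DNAJC6, DNAJC12 and DNAJC28 were not measured, with signals of 1.70 to 41.2.

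Small heat shock proteins, which hold unfolded clients without ATP, were mostly not measured. HSPB1 (HSP27) had signals of 706 in H6c7 and 649 in H6c7-Kr, a log2 ratio of -0.12. HSPB6 had signals of 63.7 and 61.1, a log2 ratio of -0.06. Both differences are within the spread between probe sets. HSPB2, HSPB3, HSPB7 and HSPB8 were not measured.

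BAG proteins couple HSP70 to other machines and went both ways. BAG2, which blocks the HSP70-linked ubiquitin ligase STUB1, went from 219 to 58.7, 3.73-fold lower, with the K-ras value close to the floor. BAG3, a partner of HSPB8 in selective autophagy, had a log2 ratio of -0.56 (658 and 448), and BAG5 -0.39 (379 and 289). BAG1, the founding nucleotide exchange factor of the family, had a higher signal in the K-ras line (178 and 299), a log2 ratio of 0.75 on one probe set and 0.83 on the other. BAG6, which guards membrane proteins on the way to the ER, was also above its parental value, with 0.60, 0.52 and 0.52 in 3 probe sets. BAG4 was not measured. Of the 5 measured BAG genes 1 (20%) was lower, against 14.4% of all measured genes, and none was higher, against 9.97%. The ratios of BAG1 and BAG6 agreed closely between probe sets.

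**Figure D2:**
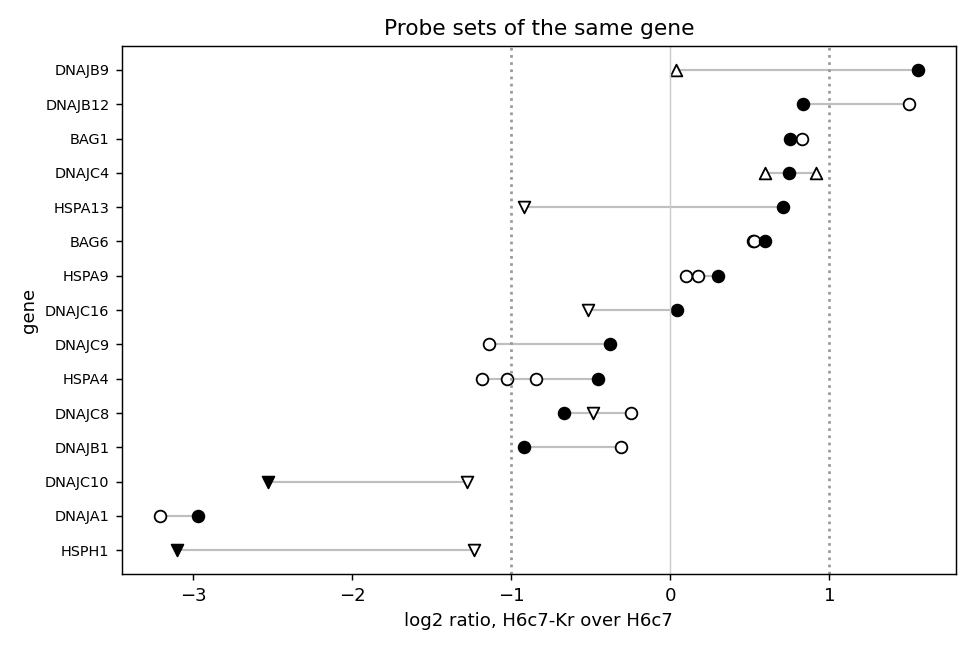
Log2 ratios of H6c7-Kr over H6c7 for the 15 members with several measured probe sets; filled symbols are the probe set used, open symbols the others, triangles are bounds against the floor pointing in the direction of the bound, and dotted lines mark 2-fold. In 13 genes all probe sets have 1 sign, and in DNAJC16 and HSPA13 they have opposite signs.

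Cytosolic and nuclear members were set against those of the ER and the mitochondrion. The 27 measured cytosolic and nuclear genes had a median log2 ratio of -0.39, with 7 lower (25.9%, against 14.4% of all measured genes) and 1 higher (3.70%, against 9.97%). Of the 7 lower genes 4 are bounds measured only through the parental array, and among the 20 above the floor on both arrays 3 (15%) were lower, against 13.4% of all genes so measured. The 7 measured ER genes had a median of 0.63, with 1 lower (DNAJC10), 1 higher (DNAJB9) and 6 with a log2 ratio above 0. The lower and the higher gene are each 14.3% of the 7, against 14.4% and 9.97% of all measured genes. Among the 6, DNAJC16 and HSPA13 had another probe set with a bound below 0, of -0.52 and -0.92. With the median over probe sets the ER median was 0.38. The 4 measured mitochondrial genes had a median of -0.36, none of them 2-fold away from the parental value. The cytosolic median was thus 1.02 below the ER median and 0.03 below the mitochondrial median on the log2 scale. With bounds left out the medians were -0.38 over 20 cytosolic and nuclear genes and 0.67 over 6 ER genes, a filter that removes DNAJC10 because its K-ras signal is below the floor.

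The distance between the medians depended on the genes included. Without probe sets of the _x_at and _s_at kinds, which may match several transcripts, the cytosolic median was 0.29 below that of the ER, and with no floor 0.50 below. With DNAJB12 left out, because its J domain is in the cytosol, the median of the 6 remaining measured ER genes was 0.51. The ER values in order were DNAJC10 (at least 5.76-fold lower), DNAJC16 (log2 ratio 0.04), DNAJC1 (0.38), HSPA5 (0.63), HSPA13 (0.71), DNAJB12 (0.83) and DNAJB9 (1.56). These are values of the probe set used for each gene. Neighbours from DNAJC16 to DNAJB12 differ by less than the spread between probe sets. In the mitochondrion, DNAJC11 and DNAJC15, which act at the cristae and at the import channel, had log2 ratios of -0.61 and -0.44.

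**Figure D3:**
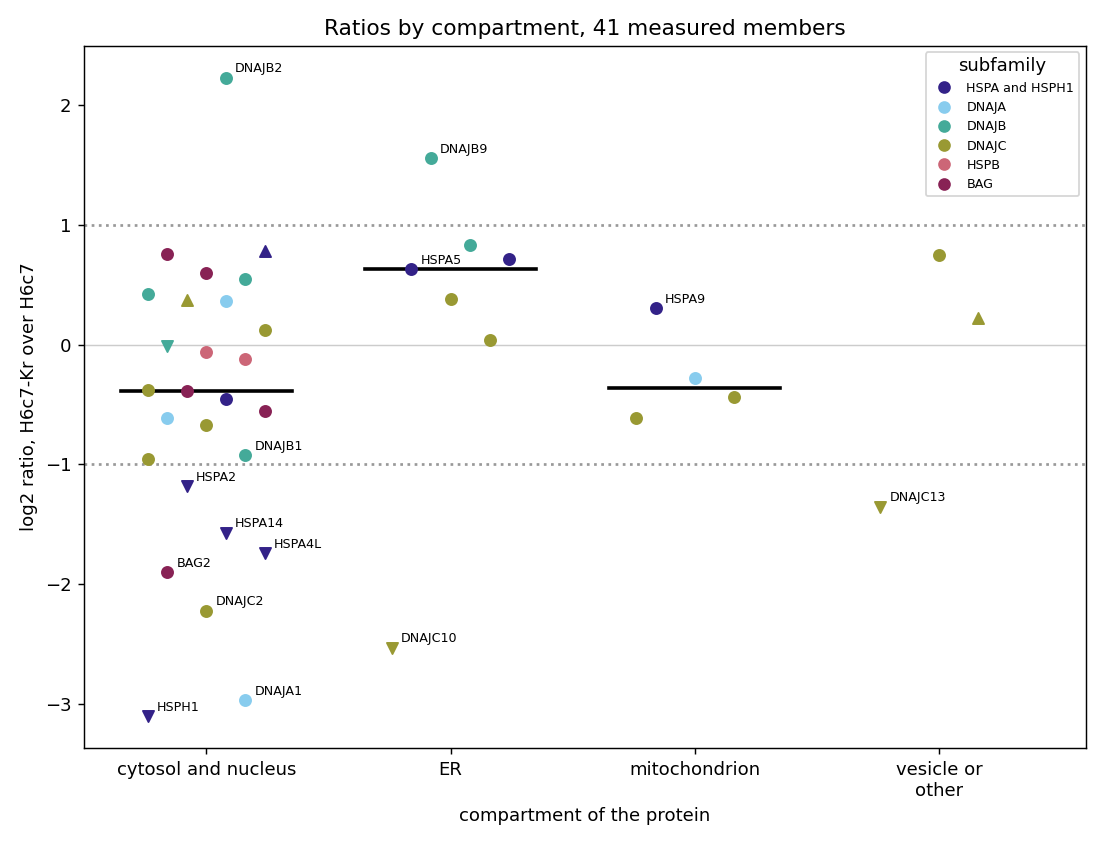
Log2 ratios of H6c7-Kr over H6c7 for the 41 measured members by compartment, coloured by subfamily; circles are above the floor on both arrays, triangles are bounds pointing in their direction, black bars are medians and dotted lines mark 2-fold. The median bar lies at -0.39 for cytosol and nucleus, 0.63 for the ER and -0.36 for the mitochondrion.

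Genes of the same cycle that carry other symbols were examined together with heat shock factors, HSBP1 and the alpha-crystallins. The list held 22 genes, of which 17 are represented and 16 were measured. Of these 4 (25%) were higher and 1 (6.25%) was lower, against 9.97% and 14.4% of all measured genes, with a median log2 ratio of 0.37 against 0.10. The nucleotide exchange factors of HSPA5 were both higher. SIL1 went from 78.8 to 219, 2.78-fold, and HYOU1, an ER HSP110 protein, from 699.9 to 1424, 2.04-fold. HSPBP1, a cytosolic exchange factor, was 2.18-fold higher (298 and 649). Cytosolic exchange factors lay on both sides of the parental value, HSPBP1 and BAG1 above it and the HSP110 genes below it. Of the latter, HSPH1 and HSPA4L are bounds whose direction was fixed by the filter. SEC63, an ER J-domain protein of the translocation channel, was 3.69-fold lower (406 and 110), though a second probe set gave a log2 ratio of -0.67.

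HSF1, the transcription factor of the heat shock response, went from 49.3, just above the floor, to 125, 2.54-fold higher, and its second probe set gave a bound of 1.16 on the log2 scale. STIP1 and ST13, which pass clients between HSP70 and HSP90, had log2 ratios of -0.64 and -0.07. A second probe set of STIP1 gave -1.21 (619 and 267), past 2-fold, and further ones of ST13 gave -0.27 and -0.84. The ubiquitin ligase STUB1 had 0.14 on an uncertain probe set. GRPEL1, the exchange factor of HSPA9, had 0.28 on one probe set and 0.83 on the other. The activity of HSF1 protein was not measured here.

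**Figure D4:**
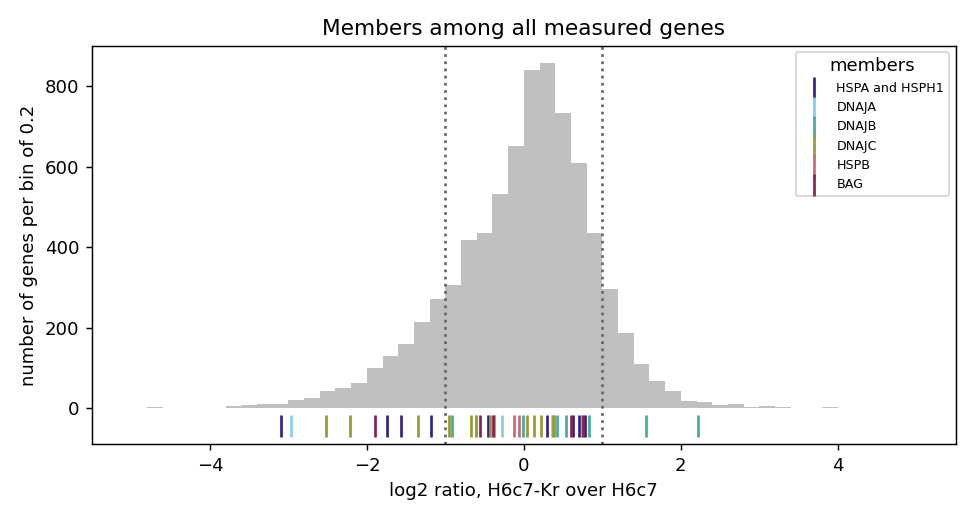
Histogram of the log2 ratios of all 7693 measured genes in bins of 0.2, with the 41 measured members as ticks below it, coloured by subfamily; dotted lines mark 2-fold. Ticks to the left of the left line number 9 and ticks to the right of the right line 2, and HSPH1 and DNAJA1 lie furthest left at -3.10 and -2.97.

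Promoter sequences of the members were searched for 3 motifs because the set holds classical targets of HSF1 and of the unfolded protein response. The RefSeq windows (GRCh38.p14) run from 250 bases before to 50 bases after each annotated start, and 47 of the 53 genes have at least 1. Both strands were searched for the heat shock element of 3 units (GAA, TTC and GAA, each 2 bases apart), the ER stress element (CCAAT and, 9 bases on, CCACG) and the ATF4-type element TGATGNAA. The 8-letter core GAANNTTC, which is contained in the first motif, was added after the windows had been seen. Stretches of the windows follow for 3 of the lower cytosolic members (DNAJA1, HSPH1, BAG2), the inducible DNAJB1 and HSPA6, and the ER pair HSPA5 and DNAJB9, with matches in capitals.
DNAJA1, chr9:33025023-33025123, plus strand, positions -250 to -150: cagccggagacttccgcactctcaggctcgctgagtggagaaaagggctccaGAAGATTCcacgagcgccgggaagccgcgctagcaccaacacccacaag
DNAJA1, chr9:33025273-33025290, plus strand, positions 1 to 18: gcgGAACTTTCCAGAAcg
HSPH1, chr13:31162389-31162488, minus strand, positions -100 to -1: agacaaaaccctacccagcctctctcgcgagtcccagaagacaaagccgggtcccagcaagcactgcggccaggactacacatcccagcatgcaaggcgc
BAG2, chr6:57172176-57172275, plus strand, positions -150 to -51: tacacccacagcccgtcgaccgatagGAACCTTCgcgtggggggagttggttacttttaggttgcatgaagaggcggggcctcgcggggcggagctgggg
DNAJB1, chr19:14518398-14518497, minus strand, positions -100 to -1: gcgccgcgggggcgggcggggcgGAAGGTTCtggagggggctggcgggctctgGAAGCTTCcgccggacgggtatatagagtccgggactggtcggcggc
HSPA6, chr1:161524440-161524539, plus strand, positions -100 to -1: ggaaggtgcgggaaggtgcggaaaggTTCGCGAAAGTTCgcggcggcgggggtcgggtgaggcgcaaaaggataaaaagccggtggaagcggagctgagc
HSPA5, chr9:125241344-125241443, minus strand, positions -100 to -1: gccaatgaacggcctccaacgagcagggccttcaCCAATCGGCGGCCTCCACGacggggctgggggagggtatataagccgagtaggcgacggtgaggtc
DNAJB9, chr7:108569774-108569873, plus strand, positions -100 to -1: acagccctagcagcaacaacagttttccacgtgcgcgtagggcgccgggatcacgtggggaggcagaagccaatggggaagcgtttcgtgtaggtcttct

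The heat shock element of 3 units was in the windows of 3 of the 47 members (6.38%) and of 166 of all 27305 genes with a window (0.608%). The 3 were DNAJA1, HSPA6 and DNAJB6, whose log2 ratios were -2.97, a bound of 0.78, and 0.42. In DNAJB6 the match lies at positions -131 to -119. The 8-letter core was in 11 members (23.4%), against 8.21% of all genes, and in DNAJB1 it occurs at -77 to -70 and -47 to -40, as printed above. Of these 11 members 8 were measured. Of the 8, 2 were lower (DNAJA1 and BAG2) and none was higher, against 14.4% and 9.97% of all measured genes. The other 6 were under 2-fold. Members with a heat shock motif thus lay on both sides of the parental value.

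The ER stress element was in the window of HSPA5 alone among the members, at positions -66 to -48, and in 25 of the 27305 genes (0.0916%). The window of DNAJB9, the ER member with the highest ratio, held no match. The ATF4-type element was in 2 of the 47 members (4.26%), HSPA4L and DNAJA4, against 4.46% of all genes. These matches describe letters in the windows and were not tested as sites. BAG4, DNAJC1, DNAJC22, DNAJC24, HSPA14 and HSPB2 had no window.

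Signals of RNA integrity and of cell identity stand beside these ratios. The signal at the 3′ end over that at the 5′ end was 1.28 in H6c7 and 1.10 in H6c7-Kr for ACTB, and 0.82 and 0.89 for GAPDH. The ratio was thus lower on the K-ras array for ACTB and higher for GAPDH. The 8 duct markers had a summed signal of 18221 in H6c7 and 16935 in H6c7-Kr, with CFTR included. Of the 8, 7 were measured in the epithelial line, and CFTR was not, with signals of 16.0 and 24.4. Of these 7 markers 3 (42.9%) were at least 2-fold lower and none was higher, where 14.4% and 9.97% of all measured genes were. The lower ones were KRT19 (4511 and 1644), EPCAM (994 and 477) and SOX9 (378 and 185), whereas KRT8 and KRT18 had log2 ratios of 0.88 and 0.38. Of the other pancreatic cell types, 1 of 4 acinar and 0 of 4 islet markers were measured. Of stromal and blood markers, 3 of 6 for fibroblasts, 1 of 4 for leukocytes and 1 of 3 for endothelium were. The summed signals of these 5 lists were 32.8 to 223 in H6c7 and 69.2 to 271 in H6c7-Kr, and the part of the duct and other markers in the differences was not tested.

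The ratio of a member moved with the genomic span of its gene. Spearman's rho was -0.41 over the 41 measured members and -0.24 over 7690 measured genes, a description over genes that share the same 2 arrays. The 9 lower members had a median span of 32.5 kb, the 30 members under 2-fold 21.9 kb and the 2 higher members 6.25 kb. The part of gene span in the differences was not tested. With the mean log2 signal the rho of the members was -0.06, and with the G+C share of the promoter window 0.12 over 37 members.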

How the data were processed

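The authors deposited a series table of intensities for 22283 probe sets (68 controls) on 2 arrays, of the Affymetrix U133A kind per the labels. No source used here names the software behind them. The authors' deposited columns have equal means (150.06) once the lowest and highest 2% are left out, so they were taken as already scaled and only set to that common mean. Gene names came from the platform annotation (19071 probe sets with 1 symbol, 1043 with several, 2169 unnamed), and all 53 members were matched by gene number to GRCh38.p14. As the floor of 46.9, the larger of both median signals was taken, without control probe sets. With 1 array per line no test was run, and precision is limited by the number of arrays. Compartments were assigned by hand from general knowledge. The members, lists, motifs and compartments were chosen with earlier results of these data known.

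Genes named with values are the members at least 2-fold away and a fixed set of 27 well-known members, of which HSPA8, HSPA1A and DNAJB11 have no value; the rule gave other members by range and count, and the values printed for single ones (signals for HSPA13, DNAJA4, DNAJB4 and HSPB6, otherwise ratios), the duct markers and further probe sets were added after they were seen. Alternatives changed the scaling, the floor, the probe set, the fold and the compartments. Setting the median log2 ratio of the 100 maintenance probe sets to 0 was added after seeing the data. A planned look at protein sequences was not run. The procedure was tested on simulated data. Figures were drawn with matplotlib 3.10.9, and ratios computed in Python 3.11.15 with pandas 2.3.3, numpy 2.4.6, statsmodels 0.14.6 and scipy 1.17.1.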

Additional observations from a re-analysis of the deposited data

How the results depend on the processing

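DNAJA1, HSPH1, DNAJC10 and DNAJC2 stayed at least 2-fold lower under every alternative that gave a value. Their log2 ratios were -3.21 to -2.57, -3.48 to -1.72, -3.02 to -1.15 and -2.32 to -1.27. So did HSPA2 (-1.87 to -1.01) and DNAJC13 (-2.27 to -1.21), which have no value with the floor at the 70th percentile. HSPH1, DNAJC2 and HSPA2 have none once _x_at and _s_at probe sets are dropped. HSPH1, DNAJC10, HSPA2 and DNAJC13 are bounds at the main floor, with their direction fixed by the filter. No paired analysis was possible because each line has 1 array. The ER median stayed above the cytosolic one under every alternative run. With no floor the difference of cytosol minus ER was -0.50. There 3 of 9 ER genes (33.3%) and 8 of 35 cytosolic and nuclear genes (22.9%) were lower, against 15% of all genes. Those higher were 1 (11.1%) and 3 (8.57%), against 20.2%. With probe sets of the _x_at and _s_at kinds dropped the difference was -0.29, with an ER median of 0.037. In that last setting 27 members remained measured, the median over the members turned to 0.033 and the HSPA median was -0.92, while with the median over probe sets the HSPA median was -0.93. With the floor at the 70th percentile 28 members were measured. Of these 4 were lower and 1 was higher, against 12.7% and 9.04% of all genes so measured. With no floor 5 of 53 were higher, against 20.2% of all genes. At 3-fold 1 of 41 was higher, against 2.40%, and 6 were lower, against 6.24%. The HSPB median changed sign, to 0.091 with the floor at the 30th percentile and 0.28 with no floor, where other HSPB genes entered, and to 0.0025 over HSPB1 and HSPB6 with the maintenance median set to 0, and it has no value without _x_at and _s_at probe sets. The difference of cytosol minus mitochondrion, -0.03, turned to 0.31 with no floor. The cause of these shifts was not tested, except that a higher floor leaves fewer genes and smaller bounds. With the 70th percentile as floor BAG2 (-0.85), DNAJB2 (0.91), HSPA14 (-0.19) and HSPA4L (-0.36) no longer reached 2-fold, nor did DNAJB9 as a median of its probe sets (0.79) or once those of the _x_at and _s_at kinds were dropped (0.033). Signals near the floor limit these ratios.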
